A study of Homo sapiens with 24 samples.

Results

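The subject is how the cytoplasmic effect of losing ERH changed when translation was stopped, in the established colon carcinoma line RKO. The quantity is an interaction on the log2 scale: the sgERH minus sgAAVS1 difference with cycloheximide (CHX), minus the same difference with DMSO, the negative control. A positive value means that an RNA stood higher in sgERH, relative to sgAAVS1, with CHX than with DMSO, and a negative value the reverse. By construction it is also the CHX effect in sgERH cells minus the CHX effect in sgAAVS1 cells. It rests on the 12 cytoplasmic libraries of the series, out of 24, in 4 groups of 3: sgERH with CHX, sgAAVS1 with CHX, sgERH with DMSO and sgAAVS1 with DMSO. Of 62754 genes in the count table, 16130 had enough counts to be tested, and of 252894 transcripts 71125. All cells carried a doxycycline-inducible Cas9 and a constitutive guide RNA. The guide cut ERH in sgERH cells and the safe-harbour site AAVS1 in the sgAAVS1 controls, and all cells received doxycycline at 100 ng/mL for 5 days. The cells then had CHX at 25 µg/mL or DMSO for 4 h, and were lysed gently to separate cytoplasm from nuclei. Polyadenylated RNA was sequenced. The edited cells were sorted pools and not clones, so unedited alleles may remain, and the labels call the replicates biological without saying whether they were separate cultures. The p-values therefore measure the spread between these libraries.

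ERH is a small, conserved protein that joins RNA-processing factors and is linked to splicing, export and the exon junction complex. Nonsense-mediated decay (NMD) destroys mRNAs whose stop codon lies upstream of an exon junction complex, and it needs a translating ribosome to find that stop codon. CHX freezes elongating ribosomes, so NMD targets accumulate within hours. It also raises many stress and immediate early mRNAs whose decay or repression depends on ongoing protein synthesis, it stabilises replication-dependent histone mRNAs, and it lowers mRNAs that need a short-lived activator. Below, a rescued loss is a gene called lower in sgERH than in sgAAVS1 cytoplasm with DMSO whose interaction was called above 0, and a vanished gain one called higher with DMSO whose interaction was called below 0. A loss or gain called in the same direction with both treatments is kept.

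Cytoplasmic libraries held 48259830 to 64180962 counts in sgERH and 49705191 to 72946068 in sgAAVS1 with CHX, and 43984260 to 60537883 in sgERH and 60657460 to 79450333 in sgAAVS1 with DMSO. Levels are given as CPM, counts relative to the scaled library total, and so relative to all other RNA of the library. In such bulk samples, fewer cells that hold an RNA and less of it per cell cannot be told apart. ERH, the targeted gene, had 68.4, 81.02 and 61.6 CPM in sgERH against 118, 122 and 107 CPM in sgAAVS1 libraries with CHX, and 72.9, 86.9 and 59.4 CPM in sgERH against 137, 158 and 152 CPM in sgAAVS1 libraries with DMSO. It was lower in every sgERH library, with an sgERH effect (log2 of sgERH over sgAAVS1, ± its standard error) of -0.72 ± 0.11 (adjusted p = 6.15e-05) with CHX and -1.03 ± 0.11 (adjusted p = 1.12e-06) with DMSO, and its interaction of 0.31 ± 0.16 (adjusted p = 0.177) did not pass the test. RNA of all mitochondrially encoded genes took 4.97% of counts in sgERH and 3.15% in sgAAVS1 with CHX. With DMSO it took 6.19% in sgERH and 3.89% in sgAAVS1. The part of this difference in the results was not tested, beyond a fit without those genes, which called 139 interactions above 0 and 445 below in place of 165 and 421. Of 13 colon epithelial markers, 4 were expressed enough to test, namely KRT8, KRT18, CDX2 and EPCAM, while KRT20, CDX1, VIL1, MUC2 and CDH1 were not. Of 11 fibroblast markers 5, and of 11 leukocyte markers 3, were tested, with PTPRC, CD3E and COL1A2 among those that were not. The summed level of the colon markers was 159 to 169.8 CPM in sgERH and 279 to 284 CPM in sgAAVS1 with CHX, and 175 to 185 CPM in sgERH and 229 to 261 CPM in sgAAVS1 with DMSO. That of the fibroblast markers was 22.8 to 25.1 CPM in sgERH and 29.3 to 32.3 CPM in sgAAVS1 with CHX, and 23.9 to 24.7 CPM in sgERH and 35.7 to 37.2 CPM in sgAAVS1 with DMSO, and that of the leukocyte markers, nearly all of it CD68, 312 to 336 CPM in sgERH and 276 to 286 CPM in sgAAVS1 with CHX, and 369.6 to 394 CPM in sgERH and 301 to 353 CPM in sgAAVS1 with DMSO. No marker had a called interaction, and the part of these levels in the results was not tested.

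Translation arrest changed fewer cytoplasmic RNAs, and changed them less, in sgERH than in sgAAVS1 cells, and most interactions took this form. An interaction was called where the adjusted p was at most 0.05 and the log2 value at least 1 in size (edgeR's quasi-likelihood test, Benjamini-Hochberg over all 16130 genes). Of all genes, 165 (1.02%) had an interaction called above 0 and 421 (2.61%) one called below 0. The median over all genes was 0.03. CHX raised 1153 genes (7.15%) and lowered 303 (1.88%) in sgERH, against 2188 (13.6%) and 1017 (6.31%) in sgAAVS1 cytoplasm. Of the 421 genes with an interaction below 0, 393 were raised by CHX in sgAAVS1 and 172 in sgERH. Of the 165 genes above 0, 146 were lowered by CHX in sgAAVS1 and 44 in sgERH. These counts share libraries with the interaction and describe what it consists of.

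The weaker response was seen whichever genotype chose the genes. Genes raised by CHX in sgAAVS1 had a median CHX effect of 1.01 in sgERH against 1.71 in sgAAVS1 on the log2 scale (2188 genes, 2042 or 93.3% with the smaller effect in sgERH). Those raised in sgERH, a choice that favours sgERH, had medians of 1.52 in sgERH against 2.00 in sgAAVS1 (1153 genes, 73.4% smaller in sgERH). Genes lowered by CHX in sgAAVS1 had medians of -0.74 in sgERH against -1.40 in sgAAVS1 (1017 genes, 98.2% smaller in size in sgERH), and those lowered in sgERH -1.25 in sgERH against -1.61 in sgAAVS1 (303 genes, 65.7%). The levels behind the calls differed: 114 of the genes above 0 and 130 of those below 0 had a mean of at least 5 CPM over the 12 libraries, and 37 of those below 0 had a group with 0 counts in all 3 libraries. Genes named below had at least 5 CPM unless a lower value is shown.

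**Figure D1:**
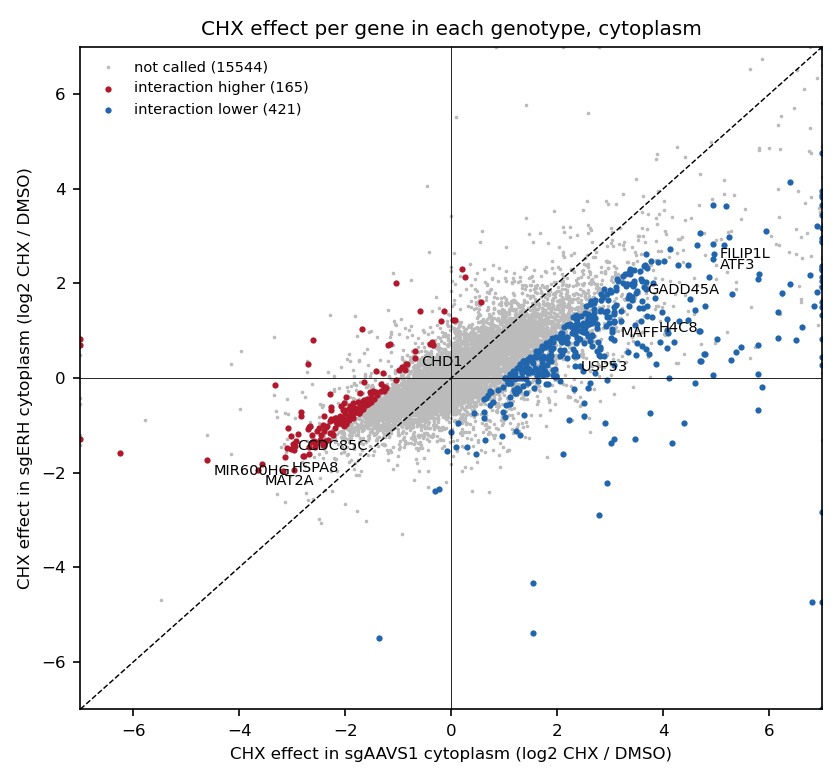
CHX effect of each gene (log2 of CHX over DMSO) in sgERH cytoplasm (vertical axis) against that in sgAAVS1 cytoplasm (horizontal axis). Each point is 1 gene, 165 red points have an interaction called above 0, 421 blue points one called below 0, the dashed line marks equal effects, and values past the axis limits are drawn at the edge. Most coloured points lie between the dashed line and the horizontal zero line, where the CHX effect has the same sign in both genotypes and is smaller in sgERH.

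Of the cytoplasmic losses, a small part was rescued by these limits. With CHX, 231 genes (1.43%) were lower in sgERH than in sgAAVS1 cytoplasm, and with DMSO 349 (2.16%). Of these 349, 22 had an interaction called above 0, the rescued losses (against 1.02% of all genes called above 0), and 97 were lower with both treatments, the kept losses. The 22 rescued losses had a median sgERH effect of -0.08 with CHX and of -1.27 with DMSO, and the kept losses -1.17 with CHX and -1.37 with DMSO. The interaction and the sgERH effect with DMSO share libraries, so part of any shift towards 0 comes with the choice. With library totals in place of the scaling factors (TMM), 184 genes were lower with DMSO, 13 losses were rescued and 51 kept. Leaving out 1 library gave 17 to 32 rescued losses, no filter on low counts 39, and the adjusted p alone, with no size limit, 1482 of 4633 losses. A rescue had either of a pair of forms, or parts of both. CHX raised 7 of the 22 in sgERH cells, which brought the sgERH level nearer to the control, and lowered 10 of them in sgAAVS1 cells, which brought the control level down.

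CMAS and TMEM87B were of the first kind. CMAS, which activates sialic acid for its transfer to glycans (chr12:22046218-22065674, + strand, GRCh38), had 40.6, 46.4 and 39.1 CPM in sgERH against 64.02, 61.8 and 68.5 CPM in sgAAVS1 libraries with CHX, and 17.6, 18.03 and 17.9 CPM in sgERH against 59.6, 62.5 and 66.96 CPM in sgAAVS1 libraries with DMSO. The sgERH libraries with CHX held more than those with DMSO but still stood below every sgAAVS1 library, with an sgERH effect of -0.62 ± 0.07 (adjusted p = 1.37e-06) with CHX and -1.82 ± 0.07 (adjusted p = 1.73e-11) with DMSO. The interaction was 1.20 ± 0.10 (adjusted p = 3.35e-07). For TMEM87B, a Golgi membrane protein, the libraries had 25.3, 24.98 and 25.8 CPM in sgERH against 28.5, 26.6 and 27.5 CPM in sgAAVS1 libraries with CHX, and 10.8, 9.71 and 11.9 CPM in sgERH against 25.3, 26.7 and 26.6 CPM in sgAAVS1 libraries with DMSO. With CHX its 3 sgERH libraries lay just below the controls. The interaction was 1.15 ± 0.10 (adjusted p = 5.70e-07).

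EHBP1L1 was of the second kind, and in CHD1, CNOT6L and TBCD the gap closed or narrowed with CHX effects under the size limit in each genotype. CHD1, a chromatin remodeller that moves nucleosomes at transcribed genes (chr5:98853985-98929007, - strand), had 162, 144 and 146 CPM in sgERH against 157, 147 and 151 CPM in sgAAVS1 libraries with CHX, and 102, 102 and 100.4 CPM in sgERH against 245, 248 and 242 CPM in sgAAVS1 libraries with DMSO. The groups did not overlap with DMSO and overlapped with CHX. The CHX effect was 0.57 in sgERH and -0.69 in sgAAVS1. The interaction was 1.26 ± 0.07 (adjusted p = 1.27e-08). CNOT6L, a deadenylase of the CCR4-NOT complex that shortens poly(A) tails, had 52.04, 51.7 and 44.1 CPM in sgERH against 55.3, 50.8 and 53.3 CPM in sgAAVS1 libraries with CHX, and 42.8, 45.6 and 43.2 CPM in sgERH against 98.1, 115 and 104 CPM in sgAAVS1 libraries with DMSO. Its CHX effect was 0.17 in sgERH and -0.99 in sgAAVS1, which gave an interaction of 1.16 ± 0.10 (adjusted p = 5.91e-07). TBCD, a cofactor of tubulin folding, followed the same form with 25 ± 0.244 CPM in sgERH against 33.8 ± 0.272 CPM in sgAAVS1 with CHX, and 21.3 ± 1.27 CPM in sgERH against 64.3 ± 2.75 CPM in sgAAVS1 with DMSO (mean ± SD over 3 libraries, here and below). Its interaction was 1.16 ± 0.08 (adjusted p = 9.36e-08). EHBP1L1, which takes part in vesicle transport, averaged 39.5 ± 4.54 CPM in sgERH against 29.4 ± 2.02 CPM in sgAAVS1 with CHX, and 69.2 ± 4.89 CPM in sgERH against 155 ± 5.997 CPM in sgAAVS1 with DMSO. The CHX effect was -0.81 in sgERH and -2.40 in sgAAVS1. The interaction was 1.59 ± 0.11 (adjusted p = 8.87e-08).

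None of the genes that the study follows for their dependence on ERH was a rescued loss by these limits, though several had a positive interaction past the adjusted p. JAK2, the kinase of the interferon-gamma receptor (chr9:4984390-5129948, + strand), had 12.9, 12.4 and 11.7 CPM in sgERH against 18.98, 19.9 and 20.7 CPM in sgAAVS1 libraries with CHX, and 8.41, 7.84 and 7.57 CPM in sgERH against 23.6, 24.1 and 21.3 CPM in sgAAVS1 libraries with DMSO. The sgERH libraries stayed below all sgAAVS1 libraries with both treatments, the sgERH effect was -0.68 ± 0.08 (adjusted p = 1.54e-06) with CHX and -1.53 ± 0.08 (adjusted p = 2.01e-10) with DMSO, and the interaction of 0.85 ± 0.11 (adjusted p = 2.68e-05) missed the size limit. HSPA4L, an Hsp110-type chaperone, had 76.5 ± 0.920 CPM in sgERH against 112 ± 5.44 CPM in sgAAVS1 with CHX, and 57.6 ± 0.729 CPM in sgERH against 146 ± 13.1 CPM in sgAAVS1 with DMSO, and its interaction of 0.79 ± 0.09 (adjusted p = 6.07e-06) likewise lay under the limit. PIK3C2A, a class II phosphoinositide 3-kinase, had an interaction of 0.45 ± 0.09 (adjusted p = 0.00178). The subunits of the interferon-gamma receptor had values of opposite sign, IFNGR2 with 0.62 ± 0.10 (adjusted p = 0.000328) and IFNGR1 with -0.41 ± 0.10 (adjusted p = 0.00917). JAK1 (0.13 ± 0.07, adjusted p = 0.198) and the transcription factor IRF1 (0.24 ± 0.13, adjusted p = 0.206) did not pass the test, and MYC, an unstable mRNA, had 0.47 ± 0.07 (adjusted p = 0.000146). The list of 10 study genes had a median of 0.38. GADD45A, the only one of them with a called interaction, is described with the gains.

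**Figure D2:**
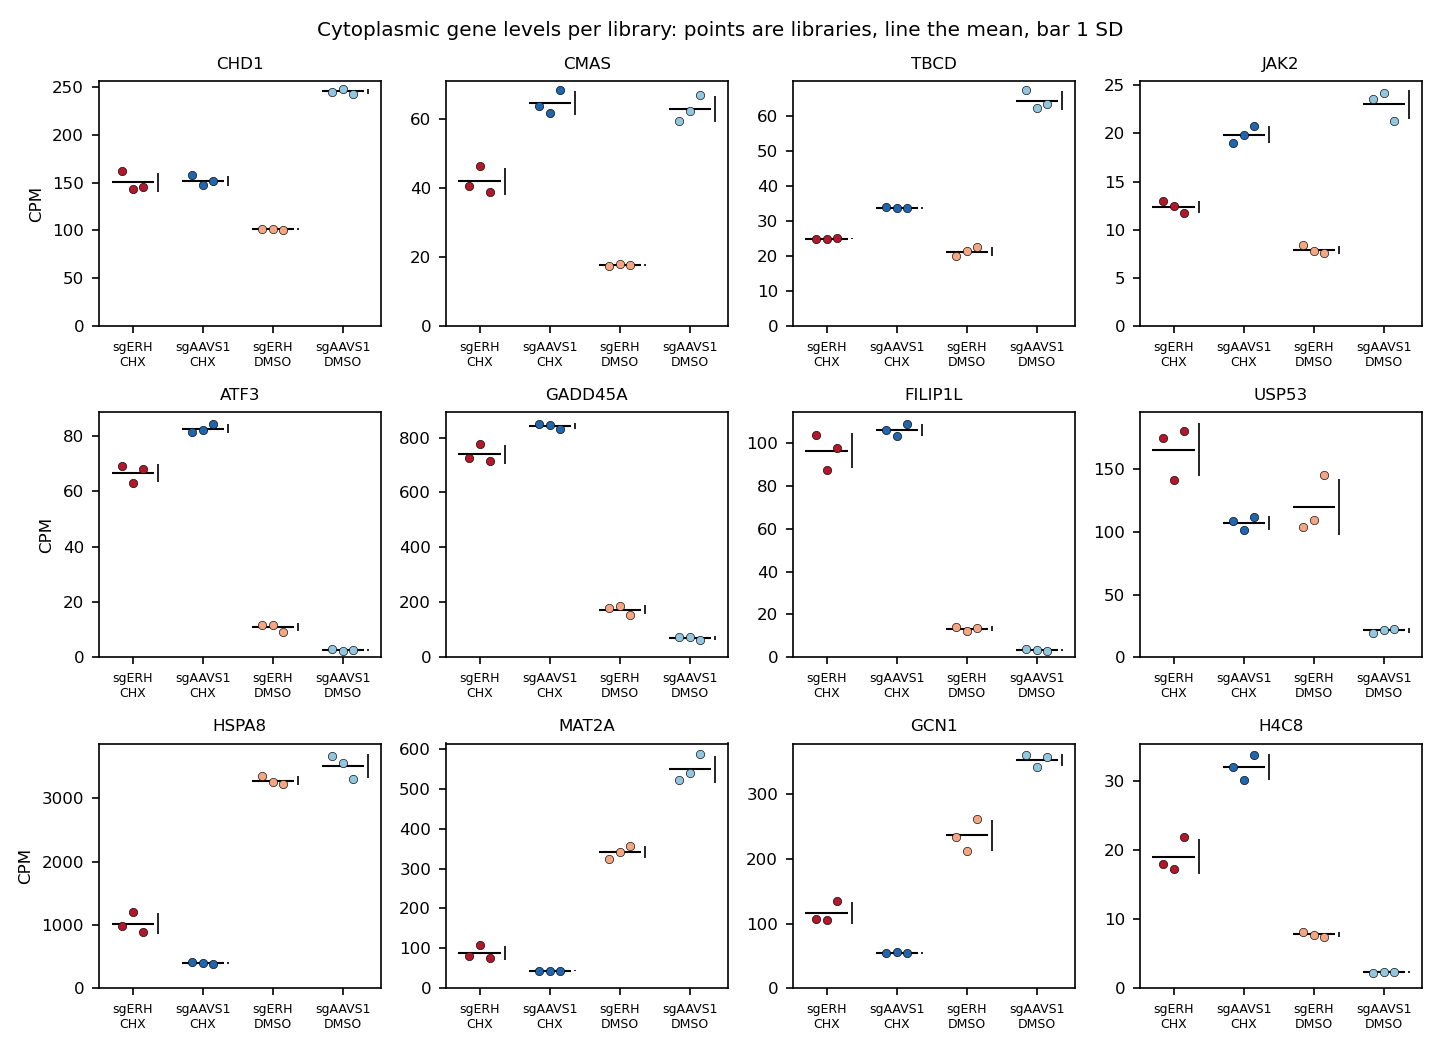
Cytoplasmic level of 12 genes per library (CPM, linear axes from 0) in sgERH with CHX, sgAAVS1 with CHX, sgERH with DMSO and sgAAVS1 with DMSO. Points are libraries (3 a group), the horizontal line is the mean and the bar beside it 1 SD; for CHD1 the genotypes overlap with CHX and are apart with DMSO, for ATF3, GADD45A and FILIP1L the sgERH level exceeds the control with DMSO alone, and for HSPA8, MAT2A and GCN1 it exceeds the control with CHX alone.

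Kept losses were the more numerous class. ERCC1, a subunit of the nuclease of nucleotide excision repair, had 251, 291 and 269 CPM in sgERH against 583, 605 and 574 CPM in sgAAVS1 libraries with CHX, and 252, 238 and 230.1 CPM in sgERH against 532, 494 and 507 CPM in sgAAVS1 libraries with DMSO. Its interaction was -0.03 ± 0.08 (adjusted p = 0.824). SKA3, which holds kinetochores to spindle microtubules, averaged 53.5 ± 3.95 CPM in sgERH against 108 ± 0.716 CPM in sgAAVS1 with CHX, and 43.3 ± 1.404 CPM in sgERH against 87.2 ± 3.54 CPM in sgAAVS1 with DMSO. The sgERH effect on PRIMPOL, a primase that restarts stalled forks, was -1.33 with CHX and -1.34 with DMSO. With CHX and with DMSO, the values were -1.15 and -1.17 for the cytoskeletal GTPase SEPTIN10, -1.5 and -1.53 for the coiled-coil protein CCDC18, and -1.34 and -1.39 for the fatty acid desaturase FADS2. These 6 genes were chosen as the kept losses with the interaction nearest to 0, so their agreement between treatments is a description.

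The nuclear libraries, which played no part in forming the classes, describe the classes in another fraction. They share sample numbers with the cytoplasmic libraries in the labels, and so are not independent samples. In nuclei with DMSO, 3 of 21 rescued losses tested (14.3%) and 31 of 92 kept losses (33.7%) were called lower in sgERH, against 1.64% of all genes tested in both fractions (of all 17330 genes tested in nuclei, 1.73%). The median nuclear sgERH effect was -0.67 for rescued and -0.81 for kept losses, against 0.02 over all. Intron retention, the share of transcripts that still hold an intron, was also read in nuclei. Genes with at least 1 intron called more retained in sgERH nuclei with DMSO made up 4 of 13 rescued losses (30.8%) and 21 of 67 kept losses (31.3%), against 6.53% of all genes. Genes with at least 1 intron called less retained made up 4 of 13 rescued losses (30.8%) and 15 of 67 kept losses (22.4%), against 22.7% of all genes. Of single introns, 1516 (1.21%) were called higher and 4315 (3.44%) lower. The higher count was 961 or 991 without replicate 1 or 3 of sgAAVS1 nuclei with DMSO, and the lower count 2138 or 2165. Without replicate 1, 2 or 3 of sgERH nuclei with DMSO, 2784, 2678 and 2815 were lower. The shares of rescued losses rest on 13 genes, and the difference between the classes was not tested.

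**Figure D3:**
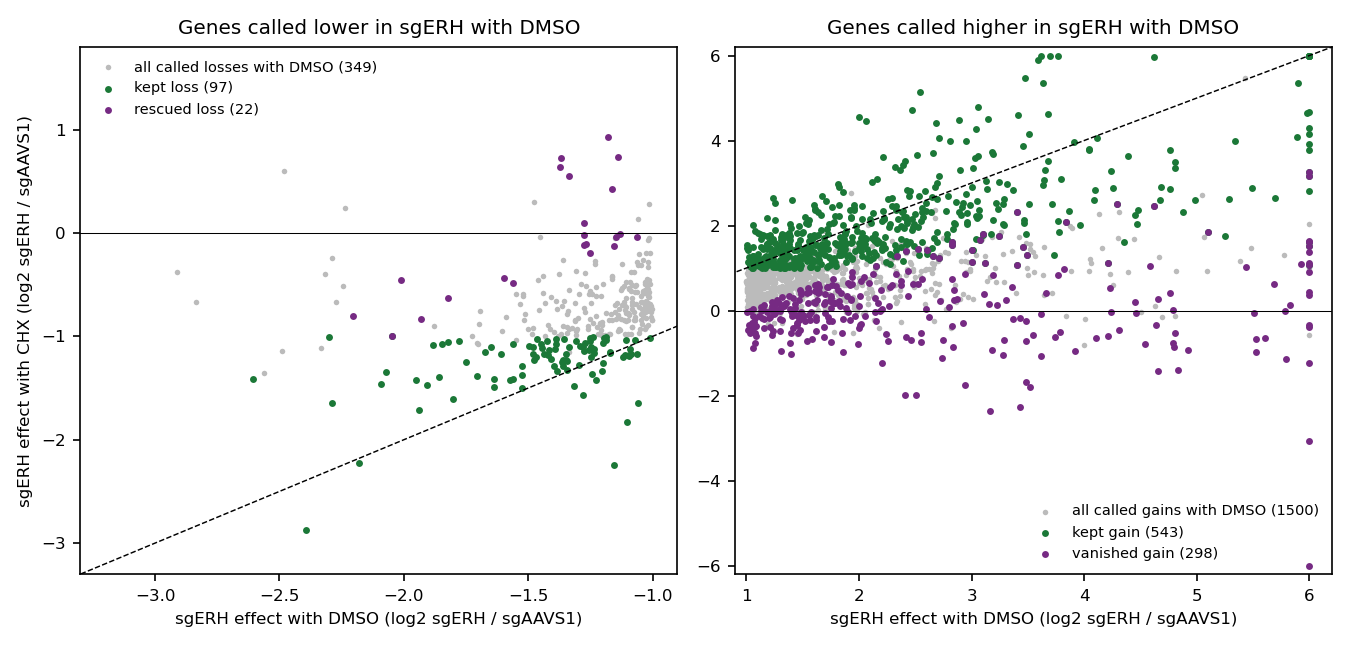
sgERH effect with CHX (vertical axis) against the sgERH effect with DMSO (horizontal axis), both log2 of sgERH over sgAAVS1 in cytoplasm, for genes called lower (left, 349) and higher (right, 1500) with DMSO. Green points are kept, purple points rescued or vanished, the dashed line marks equal effects and values past the limits are drawn at the edge; 22 of the losses and 298 of the gains are purple.

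Vanished gains outnumbered rescued losses, out of 1500 gains against 349 losses with DMSO. With CHX, 934 genes (5.79%) were higher in sgERH than in sgAAVS1 cytoplasm, and with DMSO 1500 (9.3%). Of these 1500, 298 had an interaction called below 0, the vanished gains (against 2.61% of all genes called below 0). Another count, 543, were higher with both treatments, the kept gains. In both counts were 29 genes, because a large gain shrank yet stayed past the limit. The levels of the classes differed. A mean of at least 5 CPM over the 12 libraries was reached by 66 of the 298 vanished gains and 82 of the 543 kept gains. For losses it was reached by 13 of 22 rescued and 60 of 97 kept. Most gains of both classes thus lay under that level. The median sgERH effect of the vanished gains was 0.03 with CHX and 1.95 with DMSO. CHX had raised 279 of the 298 in sgAAVS1 cells and 111 in sgERH cells, against 13.6% and 7.15% of all genes. The gain, the interaction and the CHX effect in sgAAVS1 share the sgAAVS1 libraries with DMSO. Part of these counts and of the shift towards 0 therefore comes with the choice.

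ATF3 and GADD45A were among the vanished gains. ATF3, a stress-induced transcription factor whose mRNA is an NMD target (chr1:212565334-212620777, + strand), had 69.3, 63.1 and 67.9 CPM in sgERH against 81.6, 82.1 and 84.4 CPM in sgAAVS1 libraries with CHX, and 11.7, 11.6 and 9.2 CPM in sgERH against 3.08, 2.29 and 2.65 CPM in sgAAVS1 libraries with DMSO. Its 3 sgERH libraries lay above the controls with DMSO and below them with CHX, with an sgERH effect of -0.31 ± 0.08 (adjusted p = 0.00462) with CHX and 2.02 ± 0.11 (adjusted p = 3.47e-10) with DMSO, and an interaction of -2.33 ± 0.14 (adjusted p = 1.39e-08). GADD45A, which halts growth after DNA damage and is a classic NMD target (chr1:67685201-67688334, + strand), had 725, 777 and 714 CPM in sgERH against 850.2, 844 and 830.4 CPM in sgAAVS1 libraries with CHX, and 181, 185 and 154 CPM in sgERH against 74.6, 73.7 and 62.9 CPM in sgAAVS1 libraries with DMSO. CHX raised it by log2 2.09 in sgERH and 3.58 in sgAAVS1. The interaction was -1.49 ± 0.10 (adjusted p = 7.70e-08). FILIP1L, a filamin-binding relative, had 96.3 ± 8.18 CPM in sgERH against 106 ± 2.93 CPM in sgAAVS1 with CHX, and 13.4 ± 1.1 CPM in sgERH against 3.44 ± 0.356 CPM in sgAAVS1 with DMSO. The interaction was -2.10 ± 0.12 (adjusted p = 1.17e-08). NR4A3, an immediate early nuclear receptor, averaged 19.2 ± 2.102 CPM in sgERH against 15.9 ± 0.905 CPM in sgAAVS1 with CHX, and 5.31 ± 0.586 CPM in sgERH against 1.398 ± 0.214 CPM in sgAAVS1 with DMSO. The interaction was -1.66 ± 0.17 (adjusted p = 3.08e-06).

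Other vanished gains differed in how far the level with CHX departed from the control. USP53, of the ubiquitin protease family, had 175, 141 and 180.2 CPM in sgERH against 109, 101 and 112 CPM in sgAAVS1 libraries with CHX, and 104, 109.7 and 145 CPM in sgERH against 19.5, 21.9 and 22.9 CPM in sgAAVS1 libraries with DMSO. Its sgERH libraries stayed above the controls with CHX by a smaller fold. The interaction was -1.85 ± 0.16 (adjusted p = 4.86e-07). CELSR3, a cadherin of planar cell polarity, was hardly moved by CHX in sgERH (log2 -0.05) and raised in sgAAVS1 (1.64). The interaction was -1.69 ± 0.23 (adjusted p = 5.45e-05). MAP3K7CL averaged 17.2 ± 0.680 CPM in sgERH against 20.2 ± 0.542 CPM in sgAAVS1 with CHX, and 6.94 ± 0.894 CPM in sgERH against 1.55 ± 0.197 CPM in sgAAVS1 with DMSO (interaction -2.39 ± 0.15, adjusted p = 2.43e-08), and the long non-coding RNA LINC02604 had -1.74 ± 0.28 (adjusted p = 0.000276). MAFF, a small Maf transcription factor, was a loss with CHX (log2 -1.12) and not among the gains with DMSO (0.78), with 105 ± 4.77 CPM in sgERH against 229 ± 4.74 CPM in sgAAVS1 with CHX, and 46.5 ± 3.58 CPM in sgERH against 27.1 ± 4.34 CPM in sgAAVS1 with DMSO and an interaction of -1.90 ± 0.12 (adjusted p = 4.19e-08). MMP19, a matrix metalloproteinase at 7.35 ± 0.583 CPM in sgERH against 1.28 ± 0.194 CPM in sgAAVS1 with CHX and 4.99 ± 0.560 CPM in sgERH against 0.252 ± 0.0143 CPM in sgAAVS1 with DMSO, was higher in sgERH under both treatments and less so with CHX. The interaction was -1.77 ± 0.24 (adjusted p = 6.16e-05).

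A pair of the lowest values is uncertain. ARL14, an ARF-like GTPase, had 6.47, 5.93 and 9.32 CPM in sgERH against 19.1, 17 and 22.1 CPM in sgAAVS1 with CHX, and 0.0164, 0.0227 and 0.113 CPM in sgERH with DMSO, where all 3 sgAAVS1 libraries were at 0. No fold is given against a group at 0, and without replicate 3 of sgERH with DMSO its call was lost (adjusted p = 0.0975). RPL36A-HNRNPH2, a read-through locus that shares exons with both of its neighbours, had 17.96, 4.03 and 66.2 CPM in sgERH with DMSO, a spread that makes its interaction unsafe (-4.12 ± 1.20, adjusted p = 0.0187). Its call was lost without replicate 2 of sgAAVS1 with CHX (adjusted p = 0.0767).

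The 543 kept gains had a median sgERH effect of 1.69 with CHX and 1.96 with DMSO. SAMD9, an antiviral restriction factor, had 83.5, 68.9 and 101 CPM in sgERH against 25.1, 23.8 and 28.5 CPM in sgAAVS1 libraries with CHX, and 82.2, 82.5 and 92.1 CPM in sgERH against 26.6, 24.7 and 28.3 CPM in sgAAVS1 libraries with DMSO. The adhesion receptor ICAM1 averaged 116 ± 7.96 CPM in sgERH against 54.2 ± 2.18 CPM in sgAAVS1 with CHX, and 73.8 ± 4.09 CPM in sgERH against 35.2 ± 1.05 CPM in sgAAVS1 with DMSO. NR1D2, a nuclear receptor of the circadian clock, was 1.33 higher with CHX and 1.31 higher with DMSO on the log2 scale with a CHX effect of -0.85 in sgERH and -0.87 in sgAAVS1, and the glucosidase GANC had 1.05 with CHX and 1.03 with DMSO. AJM1, a component of apical junctions, and LINC02980 had interactions of 0.03 and -0.04. These genes too were chosen for an interaction near 0. In nuclei with DMSO, 89 of 273 vanished gains (32.6%) and 227 of 516 kept gains (44%) were also called higher in sgERH, against 4.56% of all genes tested in both fractions and 4.77% of all tested in nuclei.

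The 12 highest interactions by the naming rule, EHBP1L1 among them, belonged to RNAs with a CHX effect below 0 in both genotypes and larger in size in sgAAVS1. HSPA8, named from the snoRNA host list and of the same form, is the constitutive Hsp70 chaperone and had 981, 1199 and 886 CPM in sgERH against 420.4, 393 and 382 CPM in sgAAVS1 libraries with CHX, and 3347, 3259 and 3217 CPM in sgERH against 3662, 3561 and 3297 CPM in sgAAVS1 libraries with DMSO. With DMSO the genotypes overlapped in level, and with CHX every sgERH library held more than 2 times the highest control. The interaction was 1.46 ± 0.11 (adjusted p = 2.10e-07). MAT2A, the enzyme that makes S-adenosylmethionine (chr2:85539168-85545281, + strand), had 81.02, 108 and 74.7 CPM in sgERH against 42.9, 43.9 and 44.6 CPM in sgAAVS1 libraries with CHX, and 325, 341 and 356 CPM in sgERH against 521, 539 and 586 CPM in sgAAVS1 libraries with DMSO. It was below the control with DMSO and above it with CHX. The interaction was 1.70 ± 0.14 (adjusted p = 3.34e-07). GCN1, which senses stalled ribosomes and activates the kinase GCN2, had 107, 105 and 135 CPM in sgERH against 53.9, 55.6 and 54.4 CPM in sgAAVS1 libraries with CHX, and 234, 213 and 261 CPM in sgERH against 359.6, 342 and 357 CPM in sgAAVS1 libraries with DMSO. The interaction was 1.66 ± 0.12 (adjusted p = 1.17e-07).

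The other genes of this group had the same form. KLF13, a zinc finger factor, averaged 25.2 ± 0.431 CPM in sgERH against 7.396 ± 0.566 CPM in sgAAVS1 with CHX, and 70.5 ± 3.096 CPM in sgERH against 63.4 ± 3.127 CPM in sgAAVS1 with DMSO. The interaction was 1.61 ± 0.09 (adjusted p = 1.17e-08). FOXK1, a forkhead factor of starvation responses, had 1.59 ± 0.10 (adjusted p = 4.19e-08), and NACC2, a BTB-domain repressor, 1.76 ± 0.10 (adjusted p = 1.17e-08). The highest value among genes with a symbol belonged to MIR600HG, a long non-coding RNA that hosts a microRNA, with 2.09, 2.15 and 2.599 CPM in sgERH against 0.427, 0.473 and 0.350 CPM in sgAAVS1 libraries with CHX, and 8.004, 7.799 and 7.003 CPM in sgERH against 9.91, 10.2 and 10.03 CPM in sgAAVS1 libraries with DMSO. The interaction was 2.86 ± 0.20 (adjusted p = 7.70e-08). CCDC85C, an apical junction protein, had 1.81 ± 0.10 (adjusted p = 1.17e-08), the sialomucin PODXL 1.65 ± 0.12 (adjusted p = 9.36e-08), the membrane protein CMTM4 1.63 ± 0.11 (adjusted p = 6.55e-08), FAM53B 1.69 ± 0.13 (adjusted p = 2.33e-07) and KBTBD11 1.599 ± 0.12 (adjusted p = 1.49e-07). The CHX effect in these 11 genes, HSPA8 and EHBP1L1 left out, lay between -1.95 and -1.01 in sgERH and between -4.60 and -2.66 in sgAAVS1. The rule left out genes with no symbol, in the positive direction a pair of long non-coding RNAs that would rank among these genes. ENSG00000250899 had 3.52, 4.17 and 4.48 CPM in sgERH against 1.26, 1.01 and 1.05 CPM in sgAAVS1 libraries with CHX, and 7.56, 6.68 and 7.04 CPM in sgERH against 8.74, 7.86 and 7.18 CPM in sgAAVS1 libraries with DMSO, and an interaction of 2.03 ± 0.19 (adjusted p = 1.46e-06). ENSG00000263244 had 15.2, 41.2 and 14.1 CPM in sgERH with CHX, where all 3 sgAAVS1 libraries were at 0, so no fold is given, and 55.7, 59.8 and 56.7 CPM in sgERH against 6.35, 34.1 and 58.7 CPM in sgAAVS1 libraries with DMSO.

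Among lists of related genes, 3 held most of the values called below 0 in any list, against a background of 2.61% of all genes. Known NMD target mRNAs had 8 of 34 called below 0 and none above, with a median of -0.24 (0.03 over all genes). They were ATF3, GADD45A, MAP3K14, PPP1R15A, GADD45B, ATF4, GABARAPL1 and ARC. MAP3K14, the NF-kappaB-inducing kinase, averaged 59.4 ± 7.98 CPM in sgERH against 99.4 ± 4.89 CPM in sgAAVS1 with CHX, and 14.6 ± 2.16 CPM in sgERH against 7.75 ± 0.898 CPM in sgAAVS1 with DMSO. The interaction was -1.66 ± 0.16 (adjusted p = 1.33e-06). ATF4, the effector of the integrated stress response, had 553, 582.4 and 542 CPM in sgERH against 736, 752 and 731 CPM in sgAAVS1 libraries with CHX, and 452, 437 and 442 CPM in sgERH against 243, 222 and 214 CPM in sgAAVS1 libraries with DMSO, above the control with DMSO and below it with CHX in every library. The interaction was -1.37 ± 0.07 (adjusted p = 1.17e-08). PPP1R15A, the phosphatase subunit that ends that response, had -1.14 ± 0.09 (adjusted p = 2.10e-07), GADD45B -1.06 ± 0.09 (adjusted p = 3.93e-07), the autophagy protein GABARAPL1 -1.17 ± 0.11 (adjusted p = 1.33e-06) and the synaptic gene ARC -1.46 ± 0.24 (adjusted p = 0.000325). The median sgERH effect of the 34 mRNAs was -0.07 with CHX and 0.33 with DMSO, and their median CHX effect 0.33 in sgERH and 0.59 in sgAAVS1.

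Immediate early genes had 10 of 56 called below 0 (median -0.21), ATF3 and NR4A3 lowest of those with at least 5 CPM. The members overlap in part with the NMD targets. Genes that ATF4 activates or that act with it had 3 of 37 called below 0 (median 0.07), ATF3, ATF4 and PPP1R15A, and 1 called above, SLC7A5. SLC7A5, the amino acid transporter LAT1, had 75.7 ± 0.898 CPM in sgERH against 39.97 ± 0.732 CPM in sgAAVS1 with CHX, and 191 ± 12.3 CPM in sgERH against 208 ± 8.27 CPM in sgAAVS1 with DMSO. The interaction was 1.04 ± 0.08 (adjusted p = 1.06e-07). The SLC7A5 call fell under the size limit without replicate 3 of sgAAVS1 with DMSO (0.97). NMD factors themselves had none called of 22 (median 0.10), with UPF3B, which links the exon junction complex to UPF2, at -0.74 ± 0.12 (adjusted p = 0.000191) and the decay factor SMG5 at 0.57 ± 0.09 (adjusted p = 0.000289). Host RNAs of snoRNAs, many of them NMD targets (median -0.17), had 1 of 29 called above 0, HSPA8, and 1 called below, SNHG11. SNHG11 had 21.8 ± 1.89 CPM in sgERH against 18.8 ± 0.723 CPM in sgAAVS1 with CHX, and 16.2 ± 1.65 CPM in sgERH against 5.35 ± 0.326 CPM in sgAAVS1 with DMSO. Its interaction was -1.39 ± 0.13 (adjusted p = 9.17e-07).

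Replication-dependent histone genes had the lowest list median, -1.09, with 18 of 41 called below 0, none above and 37 of 41 with a negative value. Their mRNAs normally end in a stem-loop in place of a poly(A) tail and are rapidly degraded when DNA synthesis stops, a decay that needs translation. Polyadenylated libraries therefore hold the minor part that carries a tail. Of 56 listed genes, 41 were tested. The stem-loop was found in the canonical transcript of 41 of 41 histone genes tested and of 55 of 16121 tested genes with such a transcript (0.341%). It is shown for the 3 histone genes among the lowest interactions, since it is the element for which this class is known, read from GRCh38 5′ to 3′ with the stem and loop in capitals:
H4C8 (chr6:26285126-26285151, - strand): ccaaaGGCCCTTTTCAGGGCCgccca
H4C15 (chr1:149860764-149860789, - strand): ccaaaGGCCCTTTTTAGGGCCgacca
H3C10 (chr6:27810511-27810536, + strand): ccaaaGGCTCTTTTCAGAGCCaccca

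H4C8, which encodes histone H4, had 17.9, 17.2 and 21.9 CPM in sgERH against 31.98, 30.1 and 33.8 CPM in sgAAVS1 libraries with CHX, and 8.15, 7.71 and 7.47 CPM in sgERH against 2.15, 2.42 and 2.35 CPM in sgAAVS1 libraries with DMSO. H4C15, another H4 gene, averaged 52.4 ± 9.15 CPM in sgERH against 86.3 ± 12.4 CPM in sgAAVS1 with CHX, and 6.55 ± 1.97 CPM in sgERH against 2.26 ± 0.631 CPM in sgAAVS1 with DMSO, and H3C10, of histone H3, 13.1 ± 1.48 CPM in sgERH against 19.1 ± 2.17 CPM in sgAAVS1 with CHX, and 8.24 ± 0.817 CPM in sgERH against 3.02 ± 0.588 CPM in sgAAVS1 with DMSO. In all 3 the sgERH level was above the control with DMSO and below it with CHX, and the interaction was -2.51 ± 0.14 (adjusted p = 1.17e-08) for H4C8, -2.26 ± 0.28 (adjusted p = 2.36e-05) for H4C15 and -1.99 ± 0.19 (adjusted p = 1.22e-06) for H3C10. Most counts of H4C8 (95.8%) and H4C15 (88.6%) were assigned to transcripts annotated as NMD targets, which also hold the stem-loop, and those of H3C10 to a protein-coding one. Of the 41 histone genes, 4 had over 50% of their counts on NMD-annotated transcripts and 3 of these were called below 0, as were 15 of the other 37 (median -1.07). In 37 of the 41 most counts lay on transcripts with the stem-loop. Over the list, the median sgERH effect was -0.57 with CHX and 0.70 with DMSO, and the median CHX effect 1.02 in sgERH and 2.34 in sgAAVS1. Histone genes lie in clusters of near-identical copies, so reads can be shared between them, and the lowest value of the list, that of H4C2, rests on 0.181, 0.0455 and 0.169 CPM in sgERH and 0, 0 and 0.0182 CPM in sgAAVS1 with DMSO. In nuclei the list had 9 of 33 called below 0 and a median of -1.01. Over all genes tested in nuclei, 404 of 17330 (2.33%) were called below 0, and the median was -0.02.

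**Figure D4:**
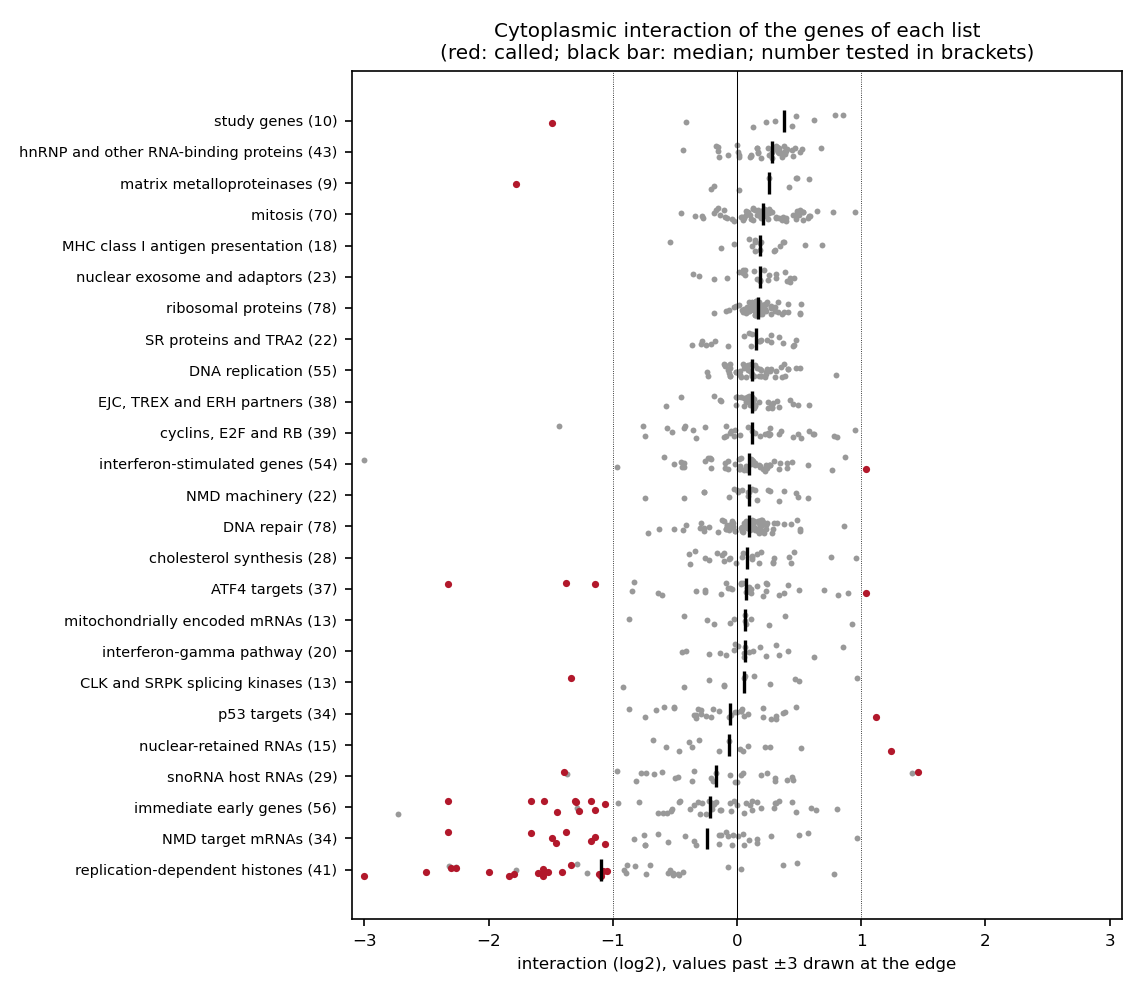
Cytoplasmic interaction (log2, horizontal axis) of the genes of each list, ordered by median. Each point is 1 gene, red if called, the black bar is the list's median and the dotted lines mark the size limit; replication-dependent histones have the lowest median, -1.09, and 18 of the called values.

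Lists of growth genes had no called interaction, and most of their members lay slightly above 0. Values above 0 were found in 73 of 78 ribosomal protein genes (median 0.17), 57 of 70 mitosis genes (0.21), 37 of 43 hnRNP and other RNA-binding protein genes (0.28), 41 of 55 DNA replication genes (0.12) and 51 of 78 DNA repair genes (0.09), against 8607 of 16130 genes in all. With the part of TMM taken out, which shifts every interaction by -0.07, the counts above 0 were 68, 52, 33, 35 and 44 in that order. All genes were not counted on that scale, so the 8607 are no background for these counts. CCNA2, cyclin A2, had the highest value of the mitosis list, with 74.8, 77.7 and 68.7 CPM in sgERH against 73.5, 71.99 and 70.2 CPM in sgAAVS1 libraries with CHX, and 76.7, 76.7 and 85.3 CPM in sgERH against 147, 152 and 152 CPM in sgAAVS1 libraries with DMSO. Its sgERH libraries lay below the controls with DMSO and overlapped them with CHX, and the interaction of 0.95 ± 0.08 (adjusted p = 4.38e-07) missed the size limit. WDHD1, a replisome protein, had 0.80 ± 0.08 (adjusted p = 3.03e-06), the flap nuclease FEN1 0.51 ± 0.08 (adjusted p = 0.000251), the microtubule depolymerase KIF2A 0.77 ± 0.07 (adjusted p = 5.24e-07) and FANCM, a fork-remodelling translocase, 0.87 ± 0.12 (adjusted p = 8.47e-05). The smallest p of the DNA repair list belonged to a negative value, -0.62 ± 0.08 (adjusted p = 1.92e-05) for HUS1, a subunit of the checkpoint clamp, with 33.3 ± 0.887 CPM in sgERH against 53.9 ± 1.04 CPM in sgAAVS1 with CHX, and 19.6 ± 0.336 CPM in sgERH against 20.6 ± 0.396 CPM in sgAAVS1 with DMSO. Among ribosomal protein genes RPS23 had 0.50 ± 0.17 (adjusted p = 0.0372) and RPL7 0.27 ± 0.09 (adjusted p = 0.0443). CCND1, cyclin D1, had 155 ± 1.94 CPM in sgERH against 82.5 ± 2.002 CPM in sgAAVS1 with CHX, and 245 ± 3.42 CPM in sgERH against 228 ± 3.48 CPM in sgAAVS1 with DMSO. The interaction was 0.81 ± 0.06 (adjusted p = 1.49e-07).

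Splicing and export lists had no called gene either, except 1 kinase. SR protein genes had a median of 0.15, with SRSF2 at 0.48 ± 0.09 (adjusted p = 0.00114) and SRSF1 at 0.45 ± 0.09 (adjusted p = 0.0012). Among genes of the exon junction complex, TREX and partners of ERH (median 0.12), the mRNA exporter NXF1 had -0.57 ± 0.08 (adjusted p = 0.000113) and the TREX subunit CHTOP -0.45 ± 0.06 (adjusted p = 7.54e-05). The nuclear exosome list had 0.18, with EXOSC2 at 0.46 ± 0.07 (adjusted p = 0.000106) and EXOSC7 at 0.40 ± 0.09 (adjusted p = 0.0034), and HNRNPAB and HNRNPU had 0.67 ± 0.10 (adjusted p = 0.000131) and 0.39 ± 0.06 (adjusted p = 0.00012). DYRK1B, counted with the CLK and SRPK kinases (median 0.05 over 13), was called at -1.33 ± 0.24 (adjusted p = 0.000685) and had 2.64 ± 0.249 CPM in sgERH against 3.17 ± 0.270 CPM in sgAAVS1 with CHX, and 2.43 ± 0.280 CPM in sgERH against 1.17 ± 0.155 CPM in sgAAVS1 with DMSO.

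The remaining lists held at most 1 call each, against 1.02% of all genes called above 0 and 2.61% below. A single call in a list of this size was not read as a result about the list. Of 54 interferon-stimulated genes (median 0.10), TRIM25, the ligase that activates RIG-I, was called at 1.04 ± 0.08 (adjusted p = 1.17e-07) with 87.7 ± 5.38 CPM in sgERH against 60.4 ± 1.87 CPM in sgAAVS1 with CHX, and 78.4 ± 1.01 CPM in sgERH against 111 ± 3.98 CPM in sgAAVS1 with DMSO, a call that fell under the size limit without replicate 3 of sgAAVS1 with DMSO (0.98). Of 34 p53 targets (median -0.06), ZMAT3, an RNA-binding protein, was called at 1.12 ± 0.08 (adjusted p = 1.17e-07) with 51.5 ± 3.27 CPM in sgERH against 16.7 ± 0.833 CPM in sgAAVS1 with CHX, and 162 ± 3.48 CPM in sgERH against 114 ± 4.62 CPM in sgAAVS1 with DMSO. None was called in the interferon-gamma pathway (median 0.06), MHC class I antigen presentation (0.19), cyclins, E2F and RB genes (0.12), mitochondrially encoded mRNAs (0.06) or cholesterol synthesis (0.08). In these lists NLRC5, the activator of MHC class I genes, had 0.69 ± 0.11 (adjusted p = 0.000186), HLA-E -0.54 ± 0.07 (adjusted p = 5.19e-05), the sterol synthesis gene LSS 0.96 ± 0.10 (adjusted p = 2.79e-06), INSIG1, which restrains sterol synthesis, 0.76 ± 0.10 (adjusted p = 2.95e-05), and the mitochondrial mRNAs MT-ND1 0.38 ± 0.08 (adjusted p = 0.00146) and MT-ND2 0.26 ± 0.08 (adjusted p = 0.0234). Of 15 nuclear-retained RNAs 1 was called above 0 (median -0.06), and of 9 metalloproteinases MMP19 below 0 (median 0.26).

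By annotation, long non-coding RNAs had the larger share of calls below 0. Of 2758 tested, 155 (5.62%) were called below 0 and 22 (0.798%) above, with a median of -0.23, against 227 (1.82%) and 143 (1.14%) of 12497 protein-coding genes with a median of 0.06. Length is given as a description. The canonical transcript had a median of 4947 bases for genes called above 0 and 2905 for those below, against 3314 over all protein-coding genes, and the 3′ untranslated region 2470 and 954 against 1290 bases. Genes without an intron made up 6.29% of those called above 0 and 14.1% of those below, or 6.7% without the histones, against 2.35% of all. These differences were not tested.

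Single transcripts were also tested and counted by annotated type. Of 71125 transcripts tested, 237 (0.333%) had an interaction called above 0 and 349 (0.491%) below. Transcripts annotated as NMD targets had 16 above and 81 below of 9604 (0.167% and 0.843%, median -0.18), while transcripts annotated as protein coding had 196 above and 160 below of 39207 (0.5% and 0.408%, median 0.09). Transcripts annotated with a retained intron had 10 and 25 of 10299, and long non-coding transcripts 10 and 52 of 5633 (0.178% and 0.923%). Differences between the types were not tested. The count below 0 was 222 without replicate 1 and 228 without replicate 3 of sgAAVS1 with CHX. NMD-annotated transcripts raised by CHX in sgAAVS1 had a median CHX effect of 1.62 in sgERH against 2.71 in sgAAVS1 (1575 transcripts), and those raised in sgERH 2.17 in sgERH against 2.37 in sgAAVS1 (824 transcripts). For protein-coding transcripts the medians were 1.04 in sgERH against 1.77 in sgAAVS1 for the first choice and 1.47 against 1.63 for the second.

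SNRPB had a transcript whose interaction was unlike that of the gene as a whole. It encodes the SmB protein of the spliceosome and controls its own level by including an exon with an early stop codon. CHD2, a relative of CHD1, has a transcript with an early stop codon in an exon that the canonical transcript lacks. The first bases of these exons are shown, since they carry the stop codon that marks the transcript for NMD. They were read from GRCh38 5′ to 3′, end with the stop codon in capitals, and belong to the NMD-annotated transcripts SNRPB-203 and CHD2-205:
SNRPB-203 exon 3 of 8 (chr20:2467192-2467315, - strand): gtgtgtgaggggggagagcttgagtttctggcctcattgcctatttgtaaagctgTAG
CHD2-205 exon 26 of 35 (chr15:92998149-92998261, + strand): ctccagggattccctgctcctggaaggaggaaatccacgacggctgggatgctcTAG

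In SNRPB-203 the stop codon lies 596 bases before the last exon junction, and in CHD2-205 1324. SNRPB-203 had 23.5, 26.02 and 26.2 CPM in sgERH against 41.1, 45.3 and 40.8 CPM in sgAAVS1 libraries with CHX, and 10.8, 9.62 and 9.296 CPM in sgERH against 2.88, 3.61 and 3.63 CPM in sgAAVS1 libraries with DMSO. With DMSO the sgERH libraries lay above the controls, with CHX below. The interaction was -2.30 ± 0.15 (adjusted p = 0.000109), while the gene as a whole had 0.14. Relative to the other transcripts of the gene the value was -2.45 (adjusted p = 0.00047). CHD2-205 had 159.7, 142 and 168 CPM in sgERH against 132, 142 and 128 CPM in sgAAVS1 libraries with CHX, and 39.1, 41.9 and 50.6 CPM in sgERH against 13.5, 10.7 and 6.92 CPM in sgAAVS1 libraries with DMSO. The interaction was -1.86 ± 0.28 (adjusted p = 0.00816), and the gene as a whole, itself a vanished gain, had -1.15. Relative to the gene, CHD2-205 had -0.73 (adjusted p = 0.591), which did not pass the test. CHD2-205 was higher in every sgERH library with DMSO, and with CHX the groups overlapped. RPS9-208, an NMD-annotated transcript of a ribosomal protein gene, had 23.8, 23.6 and 20.3 CPM in sgERH against 25.3, 29.7 and 25.7 CPM in sgAAVS1 libraries with CHX, and 14.3, 13.1 and 9.13 CPM in sgERH against 3.28, 3.18 and 3.58 CPM in sgAAVS1 libraries with DMSO. The sgERH libraries were above the controls with DMSO and below them with CHX. Its interaction was -2.11 ± 0.22 (adjusted p = 0.00104) against 0.17 for the gene, and -2.30 relative to the gene (adjusted p = 0.00582).

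LARP7-221, from the gene of the protein that binds and stabilises 7SK RNA, went another way: 13.4, 11.9 and 13.2 CPM in sgERH against 4.39, 5.42 and 4.51 CPM in sgAAVS1 libraries with CHX, and 15.04, 15.5 and 13.7 CPM in sgERH against 1.28, 0.999 and 0.962 CPM in sgAAVS1 libraries with DMSO. Here the sgERH level was high with both treatments, and the CHX effect was -0.20 in sgERH and 2.14 in sgAAVS1. The interaction was -2.33 ± 0.21 (adjusted p = 0.000429), against 0.17 for the gene. The value relative to the gene, -2.53 (adjusted p = 0.444), did not pass the test. RUNX1-203, a protein-coding transcript of the haematopoietic transcription factor gene, had the lowest value among transcripts with at least 0.5 CPM in every library, -2.99 ± 0.20 (adjusted p = 0.000145), with 55.1, 49.6 and 51.2 CPM in sgERH against 35.5, 36.3 and 33.5 CPM in sgAAVS1 libraries with CHX, and 18.9, 19.8 and 28.7 CPM in sgERH against 1.75, 1.93 and 2.05 CPM in sgAAVS1 libraries with DMSO. The transcript minimum of 0.5 CPM was chosen after the data were seen, because the lowest and highest values of all belonged to transcripts at 0 in a whole group, such as NFKB1-205, at 0 in all 3 libraries of sgERH with CHX. Of 395 called transcripts with a mean of at least 5 CPM, 374 passed that minimum and 17 had a group at 0.

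In the positive direction, CHD1-213, an NMD-annotated transcript of CHD1, followed its gene with 1.30 ± 0.15 (adjusted p = 0.00165), and CLK1-201, the canonical transcript of a splicing kinase, had 8.59, 11.1 and 4.54 CPM in sgERH against 6.48, 5.48 and 5.17 CPM in sgAAVS1 libraries with CHX, and 11.5, 9.44 and 8.53 CPM in sgERH against 37.6, 43.4 and 39.7 CPM in sgAAVS1 libraries with DMSO. The interaction was 2.53 ± 0.38 (adjusted p = 0.00763). HSPA4L-204 had 12.4, 10.4 and 17.5 CPM in sgERH against 23.5, 21.1 and 23.99 CPM in sgAAVS1 libraries with CHX, and 2.84, 0.885 and 2.51 CPM in sgERH against 21.2, 16.4 and 16.6 CPM in sgAAVS1 libraries with DMSO, a value of 2.34 ± 0.50 (adjusted p = 0.0443) in the transcript test. The calls of SNRPB-203, RUNX1-203 and CLK1-201 each held in 16 of 16 other settings, and that of HSPA4L-204 in 4 of 16. Relative to their gene, 213 transcripts (0.321%) were called above 0 and 315 (0.475%) below of 66343. With the replicate block the counts were 120 and 179, and for transcripts of at least 1 CPM 85 and 153. The 8 with the largest values had a group or more at 0.

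Retained introns were also tested in the cytoplasm. Of 49272 introns tested for depth relative to spliced reads, 0 were called above 0 and 4 below (0.00812%) with edgeR at an adjusted p of at most 0.05, a log2 value of at least 1 and an IR ratio of at least 0.05 in a group, and 262 and 653 had an unadjusted p under 0.05. The sgERH effect on introns was called above 0 for 295 and below 0 for 147 with CHX, and for 732 and 194 with DMSO. The 4 calls were not firm, since they were lost in most fits that left out 1 library: no intron was called without any one of the 6 DMSO libraries, without replicate 1 or 3 of sgAAVS1 with CHX or without replicate 2 of sgERH with CHX, 1 was called without replicate 1 or 3 of sgERH with CHX, and 5 without replicate 2 of sgAAVS1 with CHX. The counts also moved with the filter, to 7 above 0 and 50 below at a mean intron depth of at least 5, and to 0 below without introns that carry a warning. The junctions of 3 of these introns are shown, the 5′ splice site with 3 exon and 6 intron bases and the 3′ splice site with 20 intron and 3 exon bases, GRCh38, 5′ to 3′ on the gene's strand, with the first or last 2 intron bases in capitals:
CLK1 intron 3 of 12 (chr2:200860216-200861237, - strand), 5′ splice site: gggGTatga
CLK1 intron 3 of 12, 3′ splice site: cgcccacttgacgtttccAGaag
JMJD1C intron 11 of 25 (chr10:63198728-63200475, - strand), 5′ splice site: acgGTaagt
JMJD1C intron 11 of 25, 3′ splice site: tttatgttttaatatttcAGgtt
HNRNPC intron (chr14:21262769-21263310, - strand), 5′ splice site: acaGTaagt
HNRNPC intron, 3′ splice site: gatggcattttccctgaaAGcca

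The CLK1 intron, of 1022 bases, lies in a gene whose transcripts are known to keep introns in the nucleus until stress or kinase inhibition releases them. Its IR ratio was 0.0401, 0.0373 and 0.0306 in sgERH against 0.0477, 0.0424 and 0.0517 in sgAAVS1 with CHX, and 0.160, 0.240 and 0.211 in sgERH against 0.0587, 0.0821 and 0.0560 in sgAAVS1 with DMSO. The sgERH cytoplasm held more of it than the control with DMSO and not with CHX, and the interaction was -2.24 ± 0.30 (adjusted p = 0.0378). In JMJD1C, a histone demethylase gene, an intron of 1748 bases had IR ratios of 0.142, 0.110 and 0.136 in sgERH against 0.0459, 0.0376 and 0.0499 in sgAAVS1 with CHX, and 0.0669, 0.0630 and 0.0666 in sgERH against 0.00135, 0.000208 and 0.00273 in sgAAVS1 with DMSO. The interaction was -4.04 ± 0.56 (adjusted p = 0.0378). That value rests on an intron depth of only 0.861, 0.149 and 1.3 in the sgAAVS1 libraries with DMSO. Retention of this intron stayed above the control with CHX. An HNRNPC intron of 542 bases that overlaps a known exon had 0.105, 0.0899 and 0.0747 in sgERH against 0.151, 0.152 and 0.139 in sgAAVS1 with CHX, and 0.0215, 0.0220 and 0.0217 in sgERH against 0.00993, 0.0113 and 0.0132 in sgAAVS1 with DMSO. The interaction was -1.75 ± 0.21 (adjusted p = 0.0212). Its ratio was higher with CHX in both genotypes, by more in the control. Intron 19 of 44 of USP9X, a deubiquitinase gene, had 0.0288, 0.0235 and 0.0240 in sgERH against 0.0139, 0.00410 and 0.0329 in sgAAVS1 with CHX, and 0.0851, 0.0993 and 0.106 in sgERH with DMSO, where all 3 sgAAVS1 libraries were at 0, so no fold is given.

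**Figure D5:**
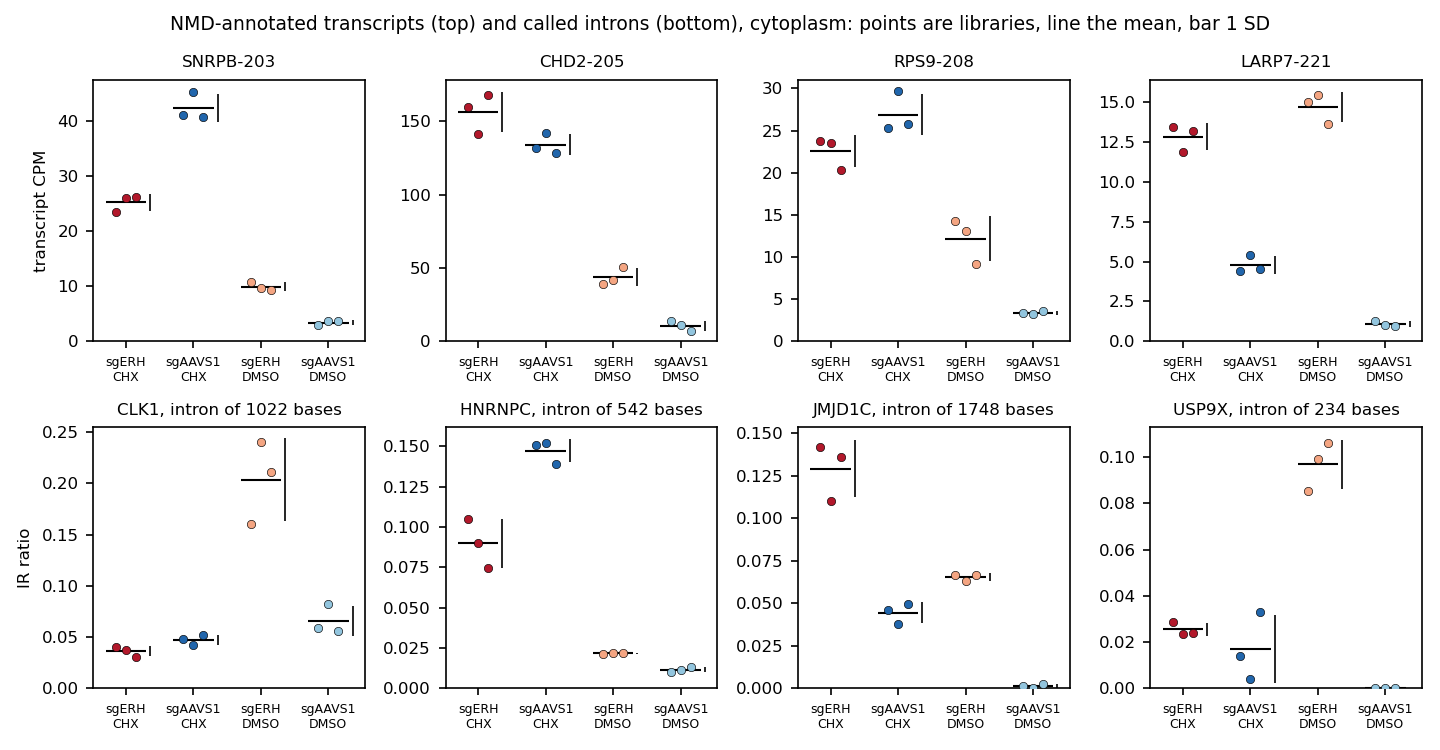
Top: cytoplasmic level of 4 NMD-annotated transcripts per library (CPM). Bottom: IR ratio of the 4 called introns per library. Groups run as sgERH with CHX, sgAAVS1 with CHX, sgERH with DMSO and sgAAVS1 with DMSO; points are libraries (3 a group), the line is the mean and the bar 1 SD, and axes start at 0. SNRPB-203, CHD2-205 and RPS9-208 are higher with CHX than with DMSO in both genotypes, LARP7-221 in sgAAVS1 alone, and the CLK1 intron is most retained in sgERH with DMSO.

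The same contrast in the nuclear libraries had 223 genes called above 0 (1.29%) and 404 called below (2.33%) of 17330. Of the genes called above 0 in the cytoplasm, 24 of 164 tested in nuclei (14.6%) were called above 0 there, against 1.38% of all genes tested in both. Of those called below 0, 93 of 393 (23.7%) were called below 0, against 2.18%. Values of the same sign were found for 126 of 164 and 321 of 393. KLF13 (1.25 ± 0.17, adjusted p = 0.000116), HSPA8 (1.27 ± 0.12, adjusted p = 3.14e-06), USP53 (-2.31 ± 0.16, adjusted p = 2.90e-07) and MAP3K7CL (-2.40 ± 0.27, adjusted p = 1.25e-05) also had called nuclear interactions.

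For other genes the interaction differed between cytoplasm and nucleus. The difference between the fractions was tested in 1 fit of all 24 libraries, a comparison added after the data were seen, which called 132 genes higher (0.714%) and 265 lower (1.43%) in cytoplasm of 18490. Among the genes called in the cytoplasm, 39 of 165 above 0 and 68 of 421 below 0 differed in the same direction. The cytoplasmic interaction that chose these genes is part of the difference, so part of this agreement in direction comes with the choice. With the shared sample number as a block, 124 genes were higher and 247 lower, of which 114 and 223 were shared with the fit without it, and 37 and 67 of the genes called in the cytoplasm differed. CHD1 had 1.66 (adjusted p = 4.84e-09), and its nuclear interaction was -0.52. In nuclei CHD1 had 327, 345 and 347 CPM in sgERH against 389, 355 and 397 CPM in sgAAVS1 with CHX, and 323, 318 and 362 CPM in sgERH against 266, 258 and 259.8 CPM in sgAAVS1 with DMSO. There the sgERH libraries lay below the controls with CHX and above them with DMSO. For JAK2 the difference was 1.15 (adjusted p = 0.000348) and for PIK3C2A 1.52 (adjusted p = 2.55e-07), with nuclear interactions of -0.41 and -1.19. In the negative direction GADD45A had -1.83 (adjusted p = 2.63e-06) and ATF4 -1.39 (adjusted p = 9.67e-07), with nuclear interactions of 0.22 and -0.11.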

How the data were processed

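Per the study's methods, the authors trimmed paired-end reads with fastp 0.23.4, removed ribosomal RNA reads and ran STAR and salmon against GRCh38 with an Ensembl annotation in the nf-core/rnaseq pipeline. The deposited tables hold salmon's expected counts per transcript, with TPM, the authors' relative abundance corrected for length, and transcript lengths. Whether salmon's counting used strand is not given in the sources used here, so antisense and overlapping genes cannot be told apart. For introns the authors' IRFinder-S files give intron depth (a signal of read coverage), counts of spliced reads and the IR ratio, a fraction. TPM was used in an alternative only.

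Expected counts were summed per gene for the gene tests, rounded to whole numbers and tested in R 4.3.3 with edgeR 4.0.16 (TMM scaling, filterByExpr with a minimum count of 10, quasi-likelihood test, 4 group means over the 12 cytoplasmic libraries, nuclei in a fit of their own). Total counts per library, given with the results, set the precision. Calls needed a p no greater than 0.05 after Benjamini-Hochberg adjustment over all features, and a log2 value of at least 1 in size. Standard errors of log2 values are the value divided by the square root of the F statistic. Relative-to-gene tests used edgeR's test of transcript usage. Introns were tested if depth plus spliced reads averaged at least 10 and the mean depth was at least 1 in a group. The test set rounded depth against spliced reads, and a call needed an IR ratio of at least 0.05 in a group. IR ratios are the authors' values. Gene names came from the annotation for 62700 of 62754 gene identifiers, and unmatched identifiers held 0.00976% of counts. No library pair was identical. Cytoplasmic and nuclear libraries of 1 sample number in the labels deviated together in part (correlation -0.02 to 0.37 over 12 pairs, median 0.10). The median of 24 other pairs was -0.06. Deviations were taken from each group's mean, which ties the other pairs to these, so that value is no independent baseline. The comparison of fractions was also run with the sample number as a block. DESeq2 1.42.0 and limma 3.58.1 served as alternatives, and the tests were checked on simulated data.

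The genes and lists were chosen with earlier results of these data known: study genes, NMD targets and machinery, immediate early genes, ATF4 targets, snoRNA hosts, histones, growth, splicing, immune and metabolic lists, and markers of other cell types. The text names ERH and the study genes, the 12 called genes with the highest and the 12 with the lowest interaction, with a symbol and averaging at least 5 CPM, up to 6 genes per class (largest interaction for rescued and vanished, smallest for kept), up to 2 called genes in each direction per list (or, in lists without a call, markers aside, the 2 of smallest p), the 8 highest and 8 lowest called transcripts, the 8 largest relative to their gene, and called introns. PPP1R15A, GADD45B, GABARAPL1, ARC, ENSG00000250899, ENSG00000263244 and the 0.5 CPM minimum for transcripts, which chose SNRPB-203, CHD2-205, RPS9-208, LARP7-221, RUNX1-203 and CHD1-213, were chosen after values were seen. Some transcripts that these rules chose are not reported here.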

Additional observations from a re-analysis of the deposited data

Results flagged for a closer look

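The CHX effect differed between the genotypes by the interaction test for 165 genes in the positive and 421 in the negative direction.

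The interaction itself differed between cytoplasm and nucleus, by edgeR's test of that difference in 1 fit of all 24 libraries, for 21 of the genes named by the rule. Cytoplasmic minus nuclear values on the log2 scale were positive for MIR600HG (2.54), CHD1 (1.66), CCDC85C (1.65), PIK3C2A (1.52), GCN1 (1.41), CNOT6L (1.28), FANCM (1.27), ZMAT3 (1.26), JAK2 (1.15), FAM53B (1.15), MAT2A (1.12), FOXK1 (1.12), HSPA4L (1.09) and PODXL (1.09), and negative for GADD45A (-1.83), ATF4 (-1.39), H4C8 (-1.38), MAP3K14 (-1.33), UPF3B (-1.20), ATF3 (-1.13) and LINC02604 (-1.12). Adjusted p-values lay between 4.84e-09 and 0.0129. With the sample number shared by the fractions as a block, these genes kept their calls and H4C15 also differed (-1.44, adjusted p = 0.0182, against 0.0524 without it). Both tests were added after the data were seen, and groups of 3 libraries were not searched for outlying samples. Many of these genes were named for their cytoplasmic interaction, which is part of the difference, so part of the difference comes with the choice.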

How the results depend on the processing

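Leaving out each of the 12 libraries in turn, the gene interaction gave 134 to 174 higher and 352 to 498 lower, the sgERH effect with CHX 817 to 962 higher and 201 to 251 lower, with DMSO 1399 to 1635 higher and 294 to 359 lower, the CHX effect in sgERH 1025 to 1230 higher and 256 to 308 lower and in sgAAVS1 2132 to 2365 higher and 914 to 1038 lower. Rescued losses numbered 17 to 32, kept losses 85 to 101, vanished gains 242 to 364 and kept gains 463 to 561, and the ERH effect with DMSO lay between -1.17 and -0.90, under the size limit without replicate 2 or 3 of sgAAVS1 with DMSO (-0.96 and -0.99) or replicate 3 of sgERH with DMSO (-0.90). In nuclei the interaction gave 190 to 251 higher and 340 to 479 lower and the sgERH effect with DMSO 706 to 870 higher and 266 to 333 lower. Transcripts gave 184 to 256 higher and 222 to 418 lower, and relative to their gene 185 to 261 higher and 272 to 381 lower. Cytoplasmic introns gave 0 higher and 0 to 5 lower. Nuclear introns gave 961 to 1801 higher and 2138 to 5660 lower, with 961 and 991 higher without replicate 1 or 3 of sgAAVS1 with DMSO, where 2138 and 2165 were lower, and 2784, 2678 and 2815 lower without replicate 1, 2 or 3 of sgERH with DMSO.

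With the adjusted p alone and no size limit, the interaction gave 2381 higher and 1793 lower, the sgERH effect with CHX 4087 higher and 3981 lower, with DMSO 4582 higher and 4633 lower, the CHX effect in sgERH 4118 higher and 4353 lower and in sgAAVS1 4989 higher and 5512 lower, with 1482 rescued losses, 2901 kept losses, 1358 vanished gains and 2519 kept gains. With library totals in place of TMM, 143 genes were lower in sgERH with CHX and 184 with DMSO, 189 were lowered by CHX in sgERH, 13 losses were rescued and 51 kept, and the ERH effect with DMSO was -0.86. The interaction then gave 123 higher and 484 lower. Leaving out TMM shifts every log2 value by -0.07 in the interaction, 0.10 and 0.17 in the sgERH effect with CHX and with DMSO, and 0.12 and 0.19 in the CHX effect in sgERH and in sgAAVS1. With no filter on low counts 39 losses were rescued. DESeq2 called 151 higher and 457 lower genes, of which 147 and 398 were shared with edgeR's calls, and 882 higher and 1556 lower transcripts. limma-trend on TPM called 81 transcripts higher, and TTN-212, at 0 in a group, turned to 0.03506. Relative to their gene, transcripts of at least 1 CPM gave 85 higher and 153 lower. Introns with a depth of at least 5 gave 7 higher and 50 lower, and without introns that carry a warning 0 lower in cytoplasm and 873 higher and 2092 lower in nuclei. The causes of these shifts were not tested, beyond the fewer or more features tested.

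Pairing of the libraries by replicate number was not evident. Deviations of same-numbered cytoplasmic libraries correlated at -0.03 to 0.06 over 18 pairs, with none over 0.1. Their median was 0.02, against -0.001 over 36 other pairs, so a weak pairing may remain. With the replicate block the gene interaction gave 168 higher and 408 lower, of which 162 and 396 were shared with the fit without it, transcripts gave 184 higher and 252 lower, and transcripts relative to their gene 120 higher and 179 lower. TRIM25 and SLC7A5 fell under the size limit with library totals (0.97 and 0.97), TRIM25 also with a length offset (0.92), and H4C2 lost its call in the fit of 24 libraries (adjusted p = 0.0724). CCNA2 passed the limit without replicate 3 of sgERH with DMSO (1.01). Depth limits the RNAs under 1 CPM, 142 of the 421 genes below 0 and 16 of the 165 above, whose folds rest on few counts.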
